A study of Mus musculus with 6 samples.

Results

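The tenascins, the thrombospondins and fibronectin are large glycoproteins that cells secrete into the matrix around them. Here 10 mouse genes of these families are described, the 4 tenascins Tnc, Tnn, Tnxb and Tnr, the 5 thrombospondins Thbs1, Thbs2, Thbs3, Thbs4 and Comp, and fibronectin Fn1, out of 55286 gene symbols in the count table. They were listed by family name with earlier results of these libraries known. Tnn was in addition chosen by its measured counts, which were noted to be confined to the reprogrammed cells, so its values are given below as a description with no test. RNA was sequenced from cells made by direct reprogramming (labelled Transdifferentiontion cell, called transdifferentiated cells here), from muscle and from mouse embryonic fibroblasts (MEF), with 2 libraries per group. The labels do not say which factor was used, how long after conversion cells were taken, what strain or age the mice had, where the muscle came from, or whether the 2 libraries of a group stem from separate cultures or animals. Every p-value thus reflects only how far these libraries spread, which may be technical.

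Fibronectin forms fibrils on the cell surface through integrins and is the scaffold on which other matrix proteins assemble. Tenascins and thrombospondins are mostly matricellular proteins, which modulate adhesion more than they bear load, and many of them are strongly made in development and repair. Tenascin-C and thrombospondin-1 are typical products of cultured and activated fibroblasts, while thrombospondin-4 and Comp are known from tendon, muscle attachment sites and cartilage, tenascin-R from the central nervous system, and tenascin-W, the product of Tnn, from developing bone, periosteum and tumour stroma.

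Library totals ran between 16817033 and 24584951 counts. Levels are counts per 1000000 (CPM) scaled by TMM factors, a gene-wise fit (edgeR) over 17400 genes gave the tests, and a gene was called at a Benjamini-Hochberg adjusted p under 0.05. All 10 muscle markers were detected in transdifferentiated cells and in muscle, with summed levels of 46178 and 66610 CPM in transdifferentiated cells and 66307 and 60147 CPM in muscle, against 586 and 394 CPM in MEF. The 8 fibroblast markers summed to 12328 and 15424 CPM in transdifferentiated cells, 12490.0 and 6736 CPM in muscle, and 26191 and 16510 CPM in MEF, and none of them was at 0 in any group. Muscle replicate 2 was thus lower than Muscle replicate 1 in the fibroblast sum, though not in Dcn (56.9 CPM in replicate 1 and 59.9 CPM in replicate 2) or S100a4 (36.3 and 37.9 CPM). The levels of the 10 genes in each muscle library are given below. The fibroblast sums are mostly collagen. By gene, 5 of the 8 markers were called higher in transdifferentiated cells than in muscle (Thy1, Pdgfra, Col3a1, Dcn and Lum; 3 without Muscle replicate 2) and 0 lower, also 0 with DESeq2 and at an unadjusted p under 0.05, with a median log2 fold change of 1.73, and 5 were lower in muscle than in MEF, with a median of -1.99. Lum, for instance, was at 163 and 99.3 CPM in transdifferentiated cells, 1.28 and 0.548 CPM in muscle and 43.5 and 49.4 CPM in MEF, and Pdgfra at 58.4 and 56.3 CPM, 8.44 and 3.71 CPM, and 79.7 and 102 CPM in the same groups. Against MEF 2 of the 8 were higher in transdifferentiated cells (Col3a1 and Lum), 1 was lower (Thy1) and 5 were not called. Thy1 was at 79.4 and 125 CPM in transdifferentiated cells, 25.4 and 18.7 CPM in muscle, and 935 and 574 CPM in MEF. Its log2 fold change in transdifferentiated cells against MEF was -2.88 (edgeR adjusted p = 5.18e-04). The shares of all genes called are given with the 10 genes below. The part of fibroblast content in the levels of the 10 genes was not tested. In bulk RNA, fewer cells of a type and less RNA per cell cannot be told apart. The 6 adult fibre markers summed to 1660 and 1896 CPM in transdifferentiated cells. They summed to 3398 and 3418.5 CPM in muscle, and to 2.04 and 3.98 CPM in MEF. Myh3 was at 4530 and 4912 CPM in transdifferentiated cells and at 6423 and 7301 CPM in muscle. Macrophage and endothelial marker sums, given below, were lowest in muscle. Whether the levels in these 2 muscle libraries hold for whole muscle tissue was not tested.

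Fn1, Thbs1, Tnc and Thbs2 were abundant in all 3 groups, highest in MEF and lower in both transdifferentiated cells and muscle. Tnn, Tnr and Thbs4 were high in transdifferentiated cells and low or near 0 in muscle and MEF. Thbs3, Comp and Tnxb were scarce, and lowest in muscle. All 10 passed the count filter, but Tnr did so only through transdifferentiated cells and Tnxb only through MEF, so these had to differ between groups to be tested at all. Both are therefore given by their counts with no test, and are left out of every count of calls among the 10 genes, as is Tnn. Genes of the other lists that reached the level of the filter, 0.527 CPM in both libraries, in fewer than 2 groups are treated in the same way.

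**Figure D1:**
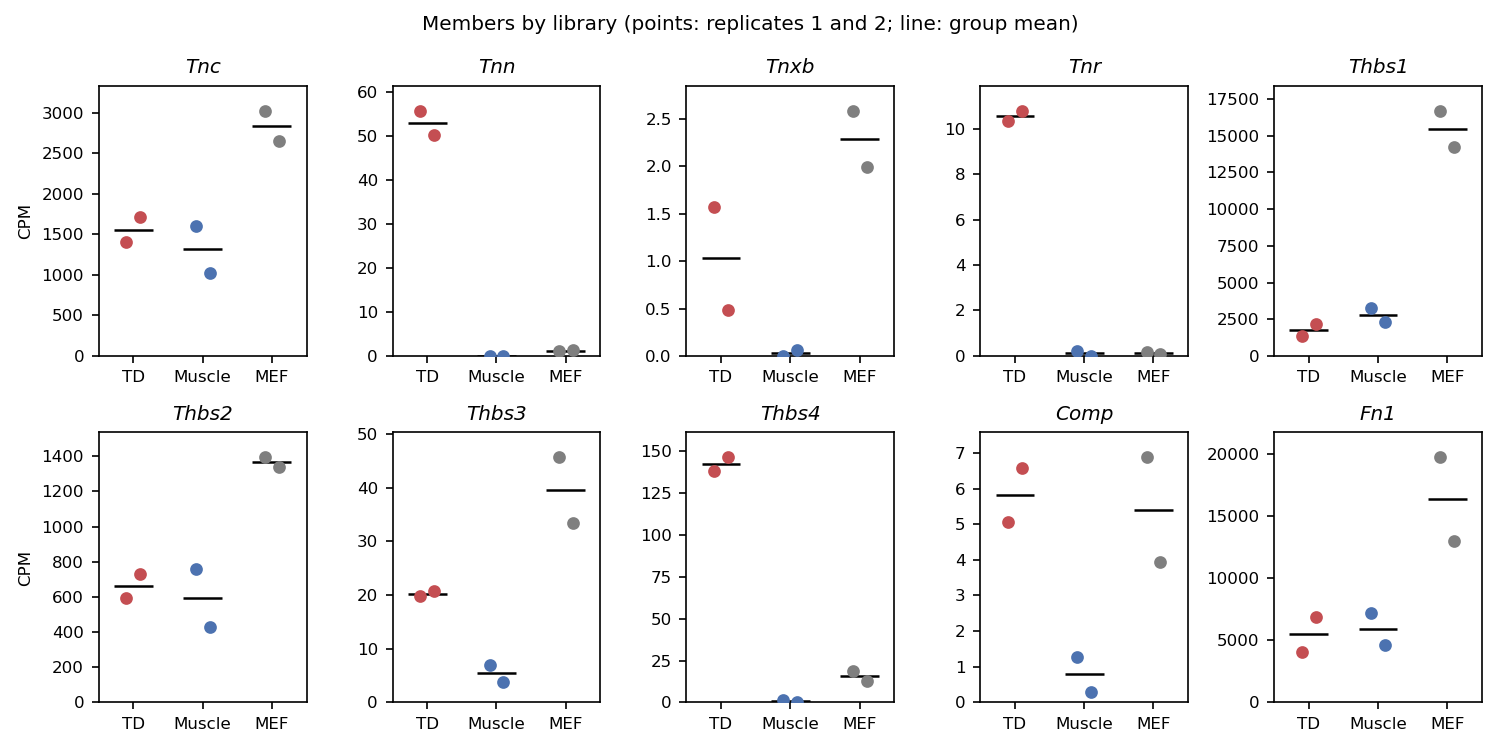
CPM of each of the 10 genes (vertical axes, linear and starting at 0, each panel with its own scale) in transdifferentiated cells (TD), muscle and MEF; points are the 2 libraries of a group and lines are means. Tnn, Tnr and Thbs4 stand high in TD alone, at means of 52.9, 10.6 and 142 CPM, while Fn1, Thbs1, Tnc and Thbs2 stand highest in MEF.

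Of the other 7 genes, 1 was higher (Thbs4), 4 were lower (Tnc, Thbs1, Thbs2 and Fn1) and 2 were not called in transdifferentiated cells against MEF. Over the 15077 genes that passed the filter through 2 or more groups 15.4% were called higher and 12.2% lower in that comparison. In transdifferentiated cells against muscle 3 were higher (Thbs3, Thbs4 and Comp), 0 were lower and 4 were not called, where 6.82% of those genes were higher and 2.37% lower. The count of 0 in edgeR was also 0 at an unadjusted p under 0.05 and 0 with DESeq2. In muscle against MEF 7 were lower and 0 were higher, also 0 at an unadjusted p under 0.05 and 0 with DESeq2, where 18.8% of those genes were lower and 17.7% higher. Thbs4 was called above both muscle and MEF, as were 1.74% of those genes, and 0 of the 7 were below both in edgeR, at an unadjusted p under 0.05 and with DESeq2, against 0.677% of those genes. The libraries did not overlap between transdifferentiated cells and MEF for 1 higher and 5 lower genes of the 7 (31.3% and 29% of those genes), between transdifferentiated cells and muscle for 3 higher and 1 lower (25.1% and 23%), and between muscle and MEF for 0 higher and 7 lower (34.8% and 34.7%). The median log2 fold change of the 7 was -0.97 in transdifferentiated cells against MEF, 0.24 against muscle and -2.47 in muscle against MEF, beside 0.04, 0.01 and 0 over those genes. Both comparisons with MEF use the same MEF libraries, and both with transdifferentiated cells the same transdifferentiated libraries, so they are not independent. Without Muscle replicate 2 the 3 higher than muscle became 1 and the 7 lower than MEF became 4. Without Transdifferentiated replicate 1 or MEF replicate 1 the 4 lower than MEF became 1 and 2, and with the replicate number as a block they became 2.

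**Figure D2:**
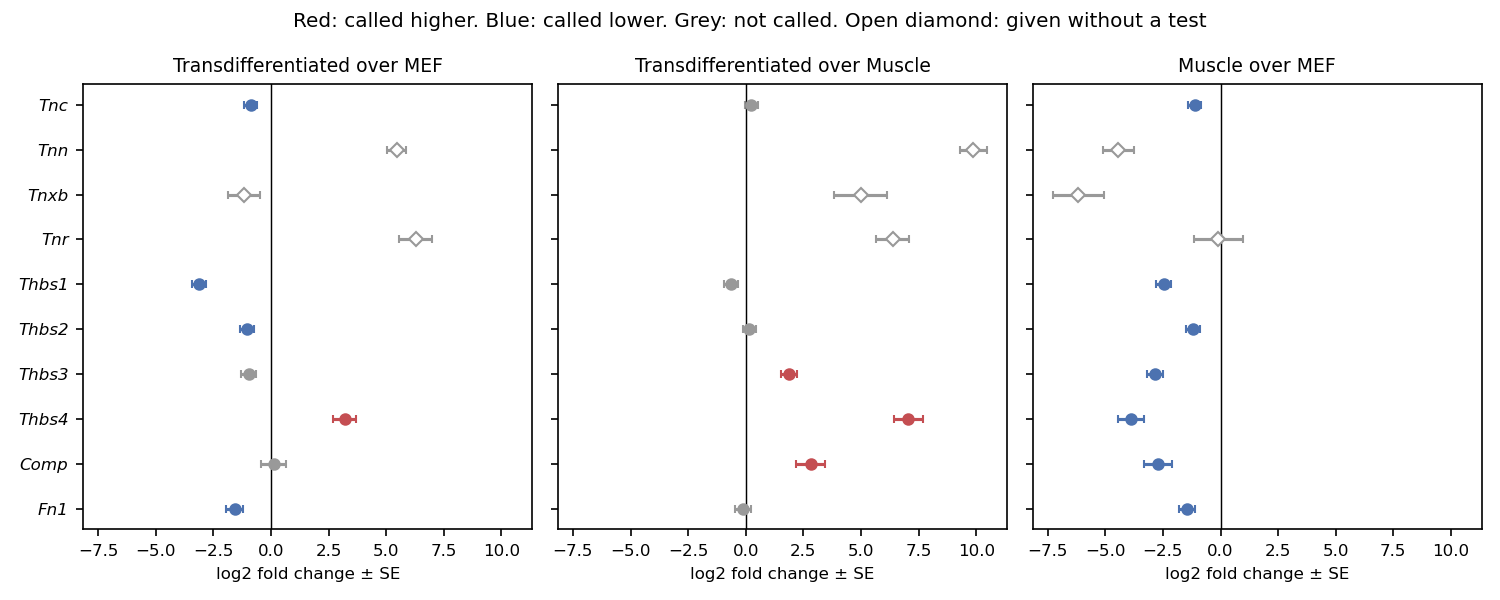
Log2 fold change of each gene with its SE (horizontal axis, edgeR fit of all 6 libraries) in transdifferentiated cells over MEF, transdifferentiated cells over muscle, and muscle over MEF. Called genes are in colour, and Tnn, Tnr and Tnxb are open diamonds because they are given without a test; Tnr, Thbs4 and Tnn are the 3 points to the right of 0 by more than 3 in both panels of transdifferentiated cells.

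Fibronectin (Fn1, chromosome 1, 71585520 to 71653200 on the minus strand, mm10) held the most counts of the 10 in every library except MEF replicate 2, where Thbs1 held more. Its level was 4099 and 6886 CPM in transdifferentiated cells, 7217 and 4671 CPM in muscle, and 19794 and 13013 CPM in MEF. Transdifferentiated cells and muscle overlapped, and every library of both lay below both MEF libraries. The log2 fold change was -1.58 ± 0.36 (SE) in transdifferentiated cells against MEF (adjusted p = 0.0115 in edgeR) and -1.46 ± 0.36 in muscle against MEF (adjusted p = 0.0118 in edgeR). The first had an adjusted p = 0.0530 without Transdifferentiated replicate 1 and the second an adjusted p = 0.100 without Muscle replicate 2. Between transdifferentiated cells and muscle the difference was -0.11, with a 95% interval of -0.91 to 0.68. Fn1 was the gene with the most counts in MEF replicate 1 and the second in MEF replicate 2, at 1.89% and 1.41% of all counts. In transdifferentiated cells it took 0.434% and 0.675%, and in muscle 0.688% and 0.453%. The counts are per gene, so the splice forms of fibronectin were not measured.

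Tenascin-C (Tnc, chromosome 4, 63959785 to 64047015 on the minus strand), which weakens adhesion of cells to fibronectin, kept a high level in all groups. It stood at 1400.2 and 1708 CPM in transdifferentiated cells, 1606 and 1024 CPM in muscle, and 3027 and 2653 CPM in MEF. Transdifferentiated cells and muscle overlapped each other, and both lay below both MEF libraries. The log2 fold change was -0.87 ± 0.28 (SE) in transdifferentiated cells against MEF (adjusted p = 0.0481 in edgeR), a narrow call. It was lost with the replicate block (adjusted p = 0.0999), in a fit of the 2 groups alone (adjusted p = 0.0520), and when any library but MEF replicate 2 was left out (adjusted p up to 0.207). In muscle against MEF it was -1.11 ± 0.28 (edgeR adjusted p = 0.0141), and the adjusted p = 0.138 without Muscle replicate 2.

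Tenascin-W (Tnn) and tenascin-R (Tnr) are neighbours on chromosome 1, at 160085029 to 160153580 on the minus strand and 159523769 to 159931729 on the plus strand. Tnn had 991 and 1034 counts in transdifferentiated cells, 2 and 0 counts in muscle, and 19 and 28 counts in MEF. Its levels were 55.7 and 50.1 CPM in transdifferentiated cells, 0.0853 and 0 CPM in muscle, and 1.05 and 1.36 CPM in MEF. It was thus not confined to transdifferentiated cells, since both MEF libraries held it at a low level. By counts, the ratio of transdifferentiated cells to MEF was 43.4 and that to muscle, which held 2 counts in all, was 1050.0. A ratio to so few counts is imprecise. No interval is given, since Tnn was chosen by these counts. A count of 0 allows up to 3 counts, which is 0.183 CPM in Muscle replicate 2. Tnr, which builds perineuronal nets in the brain, had 184 and 223 counts in transdifferentiated cells, 5 and 0 in muscle, and 3 and 2 in MEF. Its levels were 10.3 and 10.8 CPM in transdifferentiated cells and no more than 0.213 CPM in any other library. By counts, transdifferentiated cells stood at 82 times the level of MEF and at 84.4 times that of muscle. Both ratios are imprecise, since MEF and muscle held 5 counts each in all. Muscle and MEF overlapped in Tnr.

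The protein-coding genes within 500 kb of either end of the Tnr to Tnn stretch are Cop1, 4930523C07Rik, Mrps14, Cacybp and Rabgap1l. Genes of other types there are not listed. Of the 5, 4930523C07Rik lies between the 2 tenascins. It was at 15.8 and 14.3 CPM in transdifferentiated cells, 11.4 and 10.7 CPM in muscle, and 9.53 and 9.13 CPM in MEF. In edgeR 0 of these 5 neighbours were called in any comparison, also 0 with DESeq2. The shares of all genes called are those given with the 10 genes above, and a count of 0 of 5 is not set apart from them. At an unadjusted p under 0.05 there was 1 in transdifferentiated cells against MEF (4930523C07Rik, edgeR adjusted p = 0.111). There were 0 against muscle and 1 in muscle against MEF (Mrps14, edgeR adjusted p = 0.0995). Their log2 fold changes in transdifferentiated cells ran between -0.25 and 0.69 against MEF and between -0.45 and 0.45 against muscle.

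The bases before the starts of the genes that were high in transdifferentiated cells (Tnn, Tnr and Thbs4) are shown because these 3 carry the levels that set those cells apart. RefSeq starts (GRCm38.p6) were matched for 7 of the 10 genes, and the 250 bases upstream of each were searched on both strands for the E-box of MyoD and myogenin CAGCTG, for CAGGTG, for any E-box CANNTG (which contains both), for TGANTCA (AP-1), GGAATG (TEAD) and TATAAA. The windows lie at chr1:160153576-160153825 (Tnn, minus strand), chr1:159523519-159523768 (Tnr, plus strand) and chr13:92794819-92795068 (Thbs4, minus strand). Each is written 5′ to 3′ in the direction of the gene, with every match in capitals.
Tnn: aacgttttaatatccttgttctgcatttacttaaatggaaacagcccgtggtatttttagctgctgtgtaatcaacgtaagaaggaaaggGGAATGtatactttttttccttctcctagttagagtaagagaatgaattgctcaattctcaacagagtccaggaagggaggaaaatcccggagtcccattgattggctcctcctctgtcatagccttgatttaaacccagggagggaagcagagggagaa
Tnr: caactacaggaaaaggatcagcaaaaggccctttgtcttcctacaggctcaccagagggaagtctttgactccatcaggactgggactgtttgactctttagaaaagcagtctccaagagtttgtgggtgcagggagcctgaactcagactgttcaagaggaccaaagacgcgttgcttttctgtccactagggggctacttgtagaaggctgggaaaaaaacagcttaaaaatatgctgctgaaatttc
Thbs4: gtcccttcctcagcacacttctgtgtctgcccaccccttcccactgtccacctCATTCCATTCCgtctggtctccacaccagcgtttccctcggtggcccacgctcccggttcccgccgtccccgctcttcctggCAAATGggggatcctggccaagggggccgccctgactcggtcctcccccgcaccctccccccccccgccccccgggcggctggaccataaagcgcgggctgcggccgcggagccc
The Tnn window held 1 GGAATG and no E-box, and the Tnr window held none of the motifs. The Thbs4 window held CAAATG, the general E-box, 115 bases before the start, and 2 overlapping matches of the TEAD letters on the opposite strand. CAGCTG was in none of the windows of the 7 genes and in 13.0% of all 32841 windows of that length, CANNTG was in 66.2%, and GGAATG in 12.6%. These windows also differ in CpG dinucleotides. The Tnr and Tnn windows have 2 and 4, against a median of 6 over all windows, and the Thbs4 window has 19, where 82.0% of windows have as many or fewer. A match or its absence in these letters is a description of the window only.

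Tenascin-X (Tnxb, chromosome 17, 34670535 to 34719815 on the plus strand), which organises collagen in skin and tendon, was close to the limit of detection. There were 28 and 10 counts in transdifferentiated cells, 0 and 1 in muscle, and 47 and 41 in MEF. The muscle libraries lay below all others, and transdifferentiated cells below MEF. Against muscle, which held 1 count in all, the ratio was 39.4 in transdifferentiated cells, and MEF stood at 90.6 times the level of muscle. Ratios to a single count are imprecise. Transdifferentiated cells were at 0.435 times the level of MEF. Replicate libraries differed by more than counting error, with a chi-square per degree of freedom over all genes of 68.3 in transdifferentiated cells, 41.1 in muscle and 73.9 in MEF.

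Thrombospondin-1 and thrombospondin-2, the trimeric subgroup, inhibit blood vessel growth, and thrombospondin-1 also activates latent TGF-beta. Thbs1 (chromosome 2, 118111876 to 118127133 on the plus strand) was at 1385 and 2186 CPM in transdifferentiated cells, 3259 and 2323 CPM in muscle, and 16723 and 14218 CPM in MEF. The MEF libraries stood far above all others, and transdifferentiated cells lay just below muscle. It had the largest drop of the 10 in transdifferentiated cells against MEF, with a log2 fold change of -3.12 ± 0.32 (SE; edgeR adjusted p = 1.82e-04), and -2.47 ± 0.31 in muscle against MEF (edgeR adjusted p = 4.17e-04). No single library changed those calls. Against muscle the difference was -0.64 ± 0.30 (edgeR adjusted p = 0.259). Platelets carry much thrombospondin-1, and the 5 platelet and megakaryocyte markers summed to 12.3 and 6.92 CPM in transdifferentiated cells, 0.896 and 0.913 CPM in muscle, and 37.3 and 43.2 CPM in MEF, with Gp9 at 0 in all groups and Pf4 at 0 in muscle. Ppbp alone made up most of the MEF sum, at 34.3 and 40.0 CPM. Pf4 and Gp1bb had their highest means in transdifferentiated cells and Gp1ba in muscle. The 8 endothelial markers summed to 6.75 and 14.4 CPM in transdifferentiated cells, 5.54 and 2.37 CPM in muscle, and 20.9 and 20.1 CPM in MEF. Cdh5, Kdr, Tek, Tie1 and Emcn had their highest means in MEF, Vwf and Pecam1 in transdifferentiated cells and Cldn5 in muscle. The part of platelets or endothelial cells in the level of Thbs1 was not tested. Thbs2 (chromosome 17, 14665500 to 14694235 on the minus strand) moved less. It was at 593 and 730.04 CPM in transdifferentiated cells, 759.8 and 428 CPM in muscle, and 1396 and 1339 CPM in MEF, with the first 2 groups overlapping and both below MEF. The log2 fold change was -1.05 ± 0.30 (SE; edgeR adjusted p = 0.0327) in transdifferentiated cells and -1.20 ± 0.30 (edgeR adjusted p = 0.0141) in muscle, each against MEF. The first was not called with the replicate block (adjusted p = 0.0638), nor without Transdifferentiated replicate 1 or MEF replicate 1 (adjusted p = 0.134 and, rounded, 0.05), and the second not without Muscle replicate 2 (adjusted p = 0.127). The ratio of the pair did not overlap between groups. Thbs1 stood above Thbs2 per kilobase by 2.69 and 3.45 times in transdifferentiated cells, 4.95 and 6.25 times in muscle, and 13.8 and 12.2 times in MEF.

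The pentameric subgroup, Thbs3, Thbs4 and Comp, split. Thbs4 (chromosome 13, 92751590 to 92794818 on the minus strand), which is secreted in muscle and tendon and stabilises their attachment, was at 138 and 147 CPM in transdifferentiated cells, 1.71 and 0.304 CPM in muscle, and 18.6 and 12.6 CPM in MEF. All 3 groups were apart, with muscle the lowest. The log2 fold change in transdifferentiated cells was 3.19 ± 0.50 against MEF (SE; edgeR adjusted p = 0.00189) and 7.06 ± 0.62 against muscle (edgeR adjusted p = 3.32e-04), and the log2 fold change of muscle against MEF was -3.87 ± 0.56 (edgeR adjusted p = 8.75e-04). These 3 calls held without any single library. Thbs3 (chromosome 3, 89215180 to 89226837 on the plus strand) was at 19.8 and 20.7 CPM in transdifferentiated cells, 6.99 and 3.9 CPM in muscle, and 45.7 and 33.5 CPM in MEF. Its groups did not overlap either, but in the order muscle, transdifferentiated cells, MEF. The log2 fold change was 1.88 ± 0.35 in transdifferentiated cells against muscle (SE; adjusted p = 0.0106 in edgeR, and 0.102 when Muscle replicate 2 was left out) and -2.85 ± 0.36 in muscle against MEF (edgeR adjusted p = 4.11e-04). Against MEF the transdifferentiated cells had -0.97 ± 0.34 (edgeR adjusted p = 0.0625), which DESeq2 called (adjusted p = 0.0311). Thbs3 shares 318 exon bases with Mtx1 on the other strand, or 6.59% of its exons, and reads there cannot be assigned if strand was not used in counting. Comp, cartilage oligomeric matrix protein (chromosome 8, 70373558 to 70382066 on the plus strand), was at 5.06 and 6.58 CPM in transdifferentiated cells, 1.28 and 0.304 CPM in muscle, and 6.88 and 3.93 CPM in MEF. Transdifferentiated cells and MEF overlapped, with a log2 difference of 0.11 and a 95% interval of -1.13 to 1.35, and muscle lay below both. The rise against muscle was 2.81 ± 0.62 (SE; edgeR adjusted p = 0.0213), with an adjusted p = 0.110 without Muscle replicate 2, and muscle had -2.70 ± 0.61 against MEF (edgeR adjusted p = 0.00868). The authors' deposited table lists Tnn, Tnxb, Thbs3, Thbs4 and Comp among its genes. The log2 fold changes are 3.83 ± 1.29, 4.08 ± 2.29, 2.60 ± 0.66, 3.37 ± 1.04 and 2.17 ± 0.89 (SE). Its header names no contrast. In these counts the sign is that of MEF over muscle for these genes, but also that of transdifferentiated cells over muscle. The sign of these genes alone thus does not settle the contrast.

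Set beside each other per kilobase of exon (RPKM), the order of the 10 genes differed by group. In transdifferentiated cells it began with Fn1 at 470.0 ± 169 RPKM and Thbs1 at 294 ± 93.3 RPKM (SD, n = 2), whose libraries overlapped. Tnc at 199.96 ± 28 and Thbs2 at 94.5 ± 13.8 RPKM followed, then Thbs4 at 43.2 ± 1.85, Tnn at 9.09 ± 0.687 and Thbs3 at 4.19 ± 0.130 RPKM. Comp at 1.96 ± 0.363, Tnr at 0.822 ± 0.0249 and Tnxb at 0.0843 ± 0.0631 RPKM closed it, with no overlap between neighbours after Fn1 and Thbs1. In muscle Fn1 (509 ± 154 RPKM) and Thbs1 (459.5 ± 109 RPKM) overlapped at the top, and so did Thbs4 with Comp and the 3 last, Tnr, Tnn and Tnxb. In MEF Thbs1 led at 2547 ± 292 RPKM, above Fn1 at 1404 ± 410.3 RPKM without overlap, and Tnn and Tnxb overlapped. Thbs4 was thus at rank 5 in transdifferentiated cells and at rank 6 in both muscle and MEF, and Tnn at rank 6 in transdifferentiated cells, 9 in muscle and 8 in MEF. Together the 10 genes took 0.815% and 1.15% of counts in transdifferentiated cells, 1.23% and 0.819% in muscle, and 3.92% and 3.39% in MEF.

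**Figure D3:**
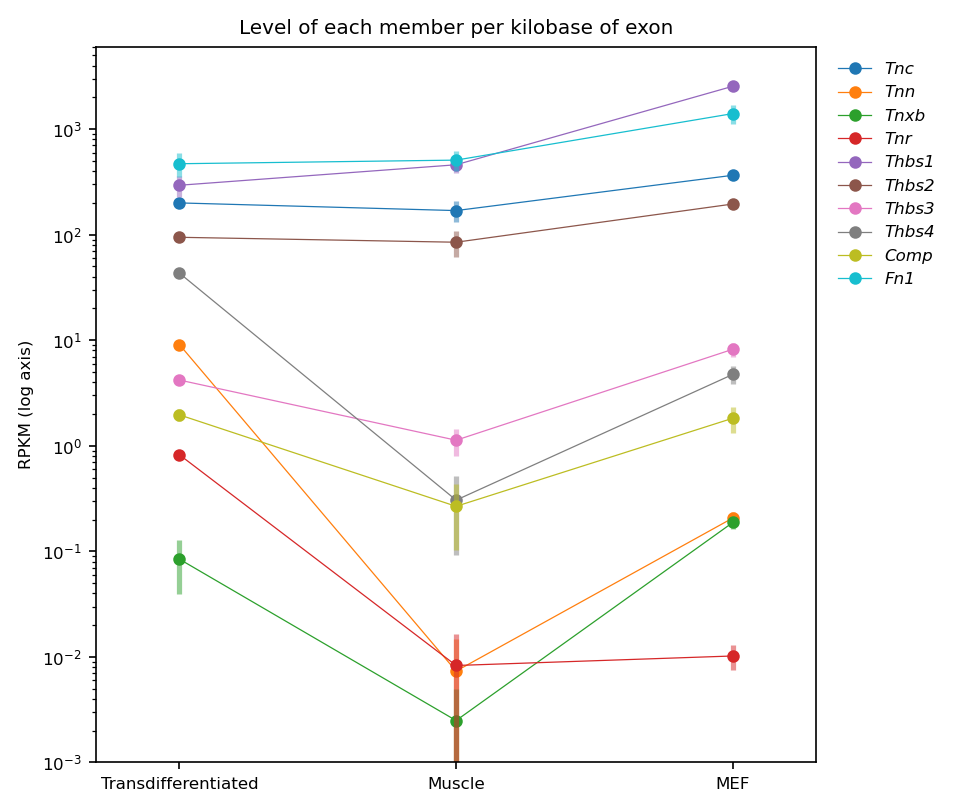
Mean level of each gene in RPKM (vertical axis, log scale) in transdifferentiated cells, muscle and MEF; pale bars span the 2 libraries, are cut at 0.001 where a library was at 0, and thin lines only join the points of a gene. The 4 abundant genes stay between 84.8 and 2547 RPKM in all groups, while Thbs4, Tnn and Tnr stand 1 or more decades higher in transdifferentiated cells than in muscle.

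Macrophage markers were also highest in transdifferentiated cells. Most were higher in MEF than in muscle, whereas Tnr was near 0 in both. The 11 fixed markers summed to 483 and 499 CPM in transdifferentiated cells, 5.03 and 2.01 CPM in muscle, and 63.1 and 47.4 CPM in MEF. Of the 9 that passed the filter through 2 or more groups 8 were called above MEF in transdifferentiated cells and 9 above muscle. The shares over the 15077 genes were 15.4% and 6.82%. None of the 11 was at 0 in transdifferentiated cells, Adgre1, Tyrobp and Ptprc were at 0 in muscle, and Itgam in MEF. The complement gene C1qa, for instance, was at 46.2 ± 3.62 CPM in transdifferentiated cells, 0.0518 ± 0.0129 CPM in muscle and 1.36 ± 0.135 CPM in MEF (SD, n = 2). By the root mean square difference of centred log2 CPM over the 6 libraries, which is a description over 3 groups of libraries, the nearest of 11283 genes to Tnn were C1qa (0.360), Ms4a7 (0.456) and Fcrls (0.530), genes known from macrophages and microglia. Those nearest to Thbs4 were Ifi27l2a (0.345), Fcer1g (0.378) and C1qc (0.421), and those to Tnr were Mgam (0.773), Siglec1 (0.824) and Stab1 (0.824). Tnn was chosen for its counts in transdifferentiated cells, and Tnr passed the filter through those cells alone. Genes near these 2 thus had to be high in those cells too. The 8 Schwann cell and glial markers summed to 29.9 and 33.8 CPM in transdifferentiated cells, 2.17 and 1.46 CPM in muscle, and 23.0 and 17.4 CPM in MEF. Gfap was at 15.7 and 17.3 CPM in transdifferentiated cells and no more than 0.243 CPM elsewhere, and Olig1 at 1.97 and 2.52 CPM in transdifferentiated cells and no more than 0.330 CPM elsewhere, and both passed the filter through those cells alone. Of 4 markers that passed it through 2 or more groups 1, S100b, was lower in transdifferentiated cells than in MEF (12.2% of the 15077 genes). Against muscle 3 of them were higher (6.82% of those genes). Osteoblast and periosteum markers summed to 40.7 and 28.4 CPM in transdifferentiated cells, 27.8 and 35.1 CPM in muscle, and 88.8 and 74.6 CPM in MEF, with Bglap2 at 0 in transdifferentiated cells. Runx2 made up most of each sum and was lower in transdifferentiated cells than in MEF (-1.91, edgeR adjusted p = 0.00178). Dmp1, a marker of osteocytes, went the other way, at 10.2 and 10.5 CPM in transdifferentiated cells, 4.48 and 4.20 CPM in muscle, and 0.0551 and 0.0486 CPM in MEF (7.48 against MEF, edgeR adjusted p = 2.1e-05). The 10 tendon and cartilage markers summed to 137 and 182 CPM in transdifferentiated cells, 193 and 189.5 CPM in muscle, and 261 and 186 CPM in MEF, with Kera and Col9a1 at 0 in muscle and Chad and Col9a1 at 0 in MEF. The tendon factor Scx made up most of the sum in muscle, and was at 69.8 and 109 CPM in transdifferentiated cells, 158.7 and 163.5 CPM in muscle and 14.1 and 6.80 CPM in MEF. Of the 7 that passed the filter 6, all but Scx, were lower in muscle than in MEF, and 3 (Tnmd, Fmod and Hapln1) were higher in transdifferentiated cells than in muscle. Fmod, fibromodulin, was at 29.9 and 30.7 CPM in transdifferentiated cells, 0.682 and 0.122 CPM in muscle, and 64.5 and 34.8 CPM in MEF, and Tnmd, tenomodulin, at 5.62 and 3.05 CPM, 0.0426 and 0 CPM, and 45.2 and 72.1 CPM in the same groups. The part of any such cells in the levels of Tnn, Tnr, Thbs3, Thbs4 or Comp was not tested.

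**Figure D4:**
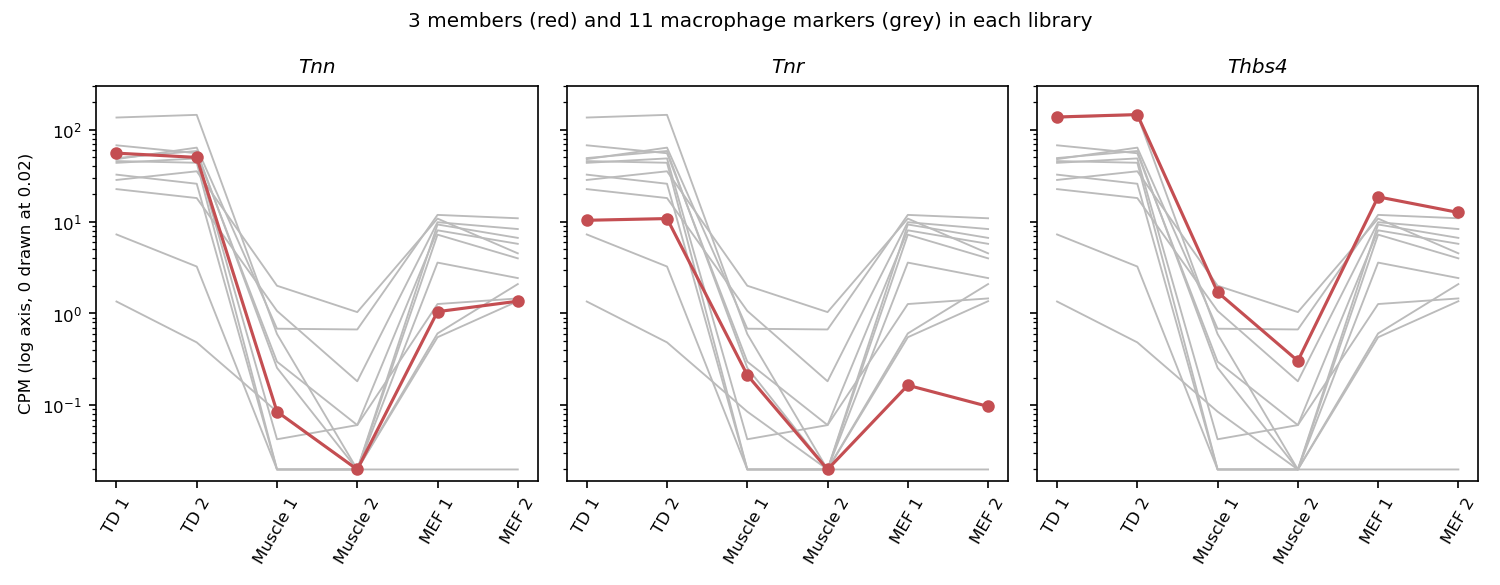
CPM (vertical axis, log scale, with 0 drawn at 0.02) of Tnn, Tnr and Thbs4 in red and of the 11 macrophage markers in grey, in each of the 6 libraries (TD, transdifferentiated cells). Tnn and Thbs4, like most of the markers, are highest in TD and lowest in muscle, while Tnr in MEF, at 0.165 and 0.0971 CPM, lies as low as in muscle.

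The abundant genes had other neighbours. Tnc and Thbs2 were nearly parallel, 0.0984 apart on the same log2 measure, the smallest of the 45 pairs among the 10 genes, and both lay near Fam171a1 (0.0907 and 0.0973). The other genes nearest to Tnc were Gm16020 (0.0684) and Gne (0.0850), and to Thbs2 Odf2 (0.101). Among the genes nearest to Thbs1 was fibulin-2, Fbln2 (0.161). Nearest to Fn1 were Pcdhgc5 (0.0718), Mvd (0.0830) and Wdr6 (0.0969), nearest to Thbs3 Nynrin (0.0828), Reck (0.163) and Mras (0.178), and nearest to Comp Begain (0.244), Adam8 (0.269) and Dapk1 (0.275).

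Integrins that receive these ligands changed by subunit. Over the 15077 genes 15.4% were called higher and 12.2% lower in transdifferentiated cells against MEF, and 6.82% and 2.37% against muscle. In muscle against MEF these shares were 17.7% and 18.8%. Of 13 subunits Itgb7 passed the count filter through MEF alone, at 0.826 and 0.583 CPM there. Of the other 12, 3 rose (Itga4, Itga9 and Itgb6) and 3 fell (Itga5, Itga8 and Itgav) in transdifferentiated cells against MEF, with a median log2 fold change of 0.13. Itga5, which pairs with beta 1 as the main fibronectin receptor, was at 185 and 331 CPM in transdifferentiated cells, 426 and 378 CPM in muscle, and 1321 and 886 CPM in MEF (-2.10 ± 0.34 against MEF, SE; edgeR adjusted p = 0.00223). Its fall in muscle against MEF (-1.45 ± 0.33, edgeR adjusted p = 0.00893) was not called without Muscle replicate 2 (adjusted p = 0.0739). Itga4, which binds an alternatively spliced part of fibronectin, was at 424 and 287 CPM in transdifferentiated cells, 44.3 and 29.6 CPM in muscle, and 6.72 and 7.82 CPM in MEF. It was higher in transdifferentiated cells than in MEF (5.61 ± 0.37, edgeR adjusted p = 1.18e-05) and than in muscle (3.27 ± 0.32, edgeR adjusted p = 5.08e-04). Itgb6, which with alpha V binds fibronectin and tenascin-C, was at 102 and 97.2 CPM in transdifferentiated cells, 142 and 149 CPM in muscle, and 0.275 and 0.243 CPM in MEF. Itga9, a subunit of a tenascin-C receptor, was at 79.7 and 98 CPM in transdifferentiated cells, 41.1 and 27 CPM in muscle, and 13 and 13.7 CPM in MEF, named after its values were seen, as was Itgav. Itga8, which binds fibronectin and tenascins, was at 3.99 and 2.03 CPM in transdifferentiated cells, 0.426 and 0.243 CPM in muscle, and 13.7 and 17 CPM in MEF, and its call against muscle was lost without Muscle replicate 2 (adjusted p = 0.0643). Against muscle 3 subunits were higher in transdifferentiated cells, Itga4, Itga8 and Itga9, and 0 were lower in edgeR and with DESeq2 (1 at an unadjusted p under 0.05), with a median of 0.04. In muscle against MEF 3 were higher (Itga4, Itga9 and Itgb6) and 4 lower (Itga5, Itga8, Itgav and Itgb3), with a median of -0.25. Without Muscle replicate 2 the 3 higher than muscle became 1, and without either muscle library the 4 lower than MEF became 2.

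Other receptors of these proteins also moved both ways, as did all genes. In transdifferentiated cells 15.4% of the 15077 genes were called higher and 12.2% lower against MEF, and 6.82% and 2.37% against muscle. In muscle against MEF the shares were 17.7% and 18.8%. Of 13 listed Cntn1, contactin-1, passed the filter through transdifferentiated cells alone, at 3.49 and 1.259 CPM there and no more than 0.340 CPM elsewhere. Of the other 12, 2 rose (Cd36 and Cacna2d1) and 4 fell (Lrp1, Calr, Ptprz1 and Egfr; 6 with DESeq2) in transdifferentiated cells against MEF, with a median log2 fold change of -0.78. Against muscle 2 were higher (Cd47 and Ptprz1; 3 with DESeq2) and 0 lower in edgeR and with DESeq2 (1 at an unadjusted p under 0.05), with a median of 0.08. In muscle against MEF 2 were higher (Cd36 and Cacna2d1) and 6 lower, with a median of -0.95. The 4 that fell became 2 without Transdifferentiated replicate 1, and the 6 lower in muscle became 3 without Muscle replicate 2. Cd36, a fatty acid transporter that binds the type 1 repeats of thrombospondin-1, was at 219 and 135 CPM in transdifferentiated cells, 72.8 and 71.5 CPM in muscle, and 0.386 and 1.51 CPM in MEF (7.51 ± 0.58 against MEF, edgeR adjusted p = 3.02e-05). Cacna2d1, a calcium channel subunit that binds thrombospondins, was at 362 and 276 CPM in transdifferentiated cells, 258 and 350.3 CPM in muscle, and 49.3 and 59.7 CPM in MEF (2.55 ± 0.28 against MEF, edgeR adjusted p = 2.89e-04). Cd47, the other well-known thrombospondin-1 receptor, was at 151 and 117 CPM in transdifferentiated cells, 64.3 and 72.8 CPM in muscle, and 140.3 and 178 CPM in MEF. Its difference from muscle (0.97 ± 0.26, edgeR adjusted p = 0.0490) was not called under 7 of the alternatives (adjusted p up to 0.303). Ptprz1, a phosphatase of the nervous system that binds tenascins, was at 5.4 and 3.29 CPM in transdifferentiated cells, 0 in both muscle libraries, and 14.5 and 14.6 CPM in MEF. Against the limit for muscle, the mean over its libraries of 3 counts each (0.155 CPM), it was at least 28-fold higher in transdifferentiated cells and at least 93.6-fold higher in MEF. Its fall against MEF in transdifferentiated cells was not called without Transdifferentiated replicate 2 (adjusted p = 0.0565). The scavenger receptor Lrp1, which clears thrombospondins, was at 352 and 669 CPM in transdifferentiated cells, 818 and 490.1 CPM in muscle, and 2005 and 1156 CPM in MEF, and its call (edgeR adjusted p = 0.0185) was lost without Transdifferentiated replicate 1 (adjusted p = 0.0659). The syndecan Sdc3 fell in muscle against MEF (-2.03 ± 0.50, edgeR adjusted p = 0.0128), though not without Muscle replicate 2 (adjusted p = 0.0970).

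**Figure D5:**
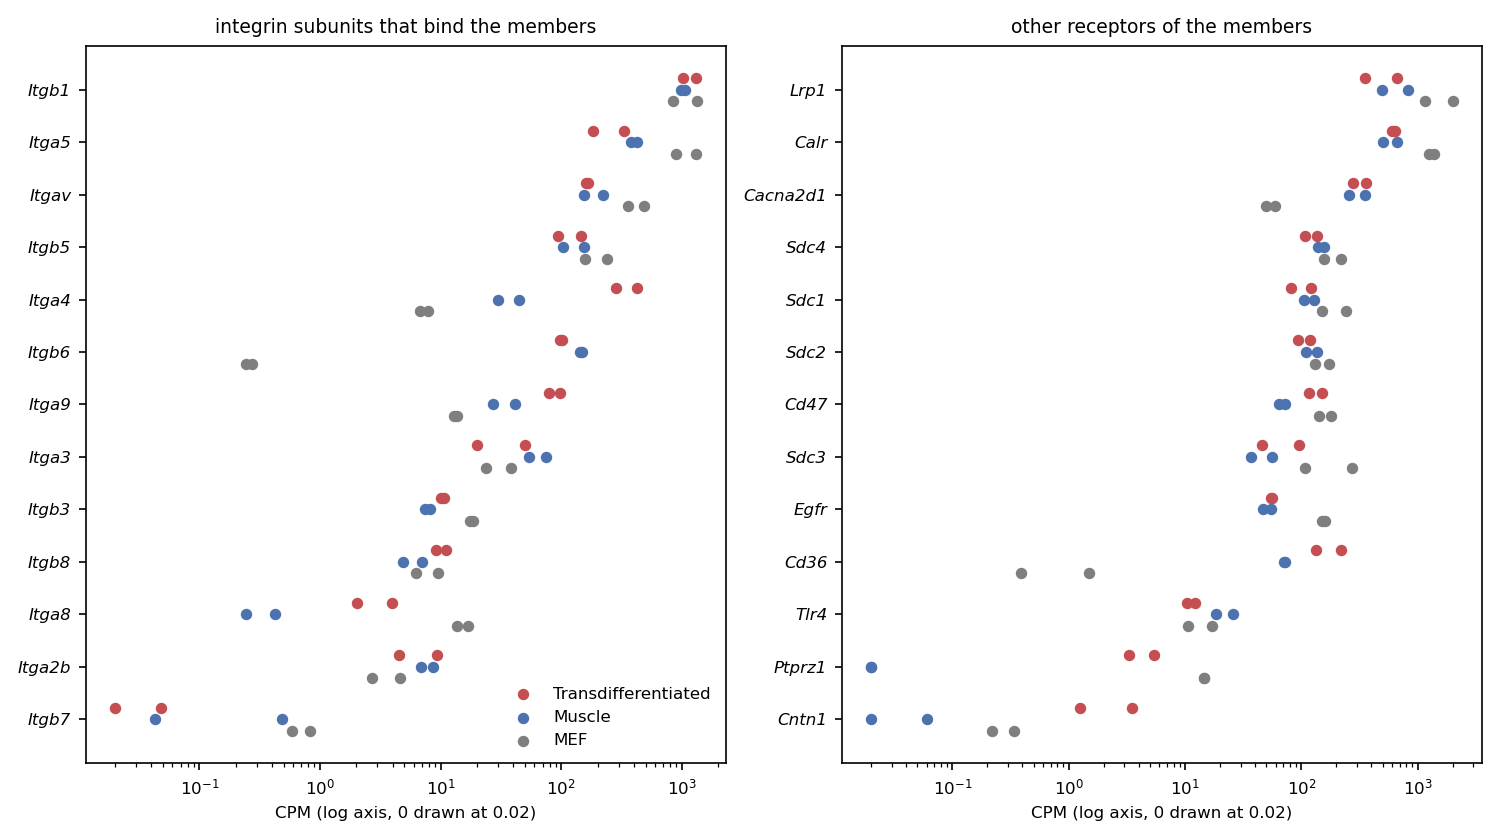
CPM (horizontal axis, log scale, with 0 drawn at 0.02) of 13 integrin subunits and 13 other receptors that bind the described proteins; each point is a library of transdifferentiated cells (red), muscle (blue) or MEF (grey). Itgb6 and Cd36 are under 2 CPM in MEF and above 70 CPM in the other groups, whereas Itga5 and Lrp1 are highest in MEF.

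Among 19 matrix partners, for which the shares of all genes called are those given with the integrins, 14 passed the filter through 2 or more groups. Of these 4 fell (Fbln2, Fbn1, Vcan and Bmp1) and 0 rose in transdifferentiated cells against MEF in edgeR and with DESeq2 (1 at an unadjusted p under 0.05), with a median log2 fold change of -0.58, and the 4 became 2 without Transdifferentiated replicate 1. Fbln2, fibulin-2, which binds fibronectin, was at 430.3 and 816 CPM in transdifferentiated cells, 1135 and 744 CPM in muscle, and 5975 and 3787 CPM in MEF (-2.97 ± 0.40 against MEF, edgeR adjusted p = 8.68e-04), and the proteoglycan Vcan, which binds tenascins, had -1.91 ± 0.27 (adjusted p = 0.00116 in edgeR). Ncan, neurocan, a proteoglycan of the brain and a known ligand of tenascin-R, passed the filter through transdifferentiated cells alone and was named after its values were seen. It stood at 9.28 and 14.9 CPM in transdifferentiated cells, 0 in both muscle libraries, and 0.0551 and 0.0486 CPM in MEF, each of the last a single count, and against the same limit for muscle it was at least 77.7-fold higher in transdifferentiated cells. Bcan of the same list was at means of 1.17 CPM in transdifferentiated cells, 0.758 CPM in muscle and 0.802 CPM in MEF. It was not called in any comparison. Acan was at no more than 0.716 CPM in any library. Against muscle 4 of the 14 were higher (Fbln1, Matn2, Tgfbi and Col6a1), with a median of 0.45. In that comparison 0 were lower in edgeR, with DESeq2 and at an unadjusted p under 0.05. Tgfbi, a fibronectin-binding product of TGF-beta signalling, was at 150.3 and 140.1 CPM in transdifferentiated cells, 2.47 and 1.34 CPM in muscle, and 105 and 85.4 CPM in MEF. Fbln1 was at 62.9 and 90.7 CPM in transdifferentiated cells, 6.69 and 4.81 CPM in muscle, and 137 and 88.9 CPM in MEF. In muscle against MEF 9 were lower, led by Tgfbi and Fbln1 (-5.61 ± 0.37 and -4.29 ± 0.37), with a median of -1.16, and Tgm2, the transglutaminase that cross-links fibronectin, was higher (1.45 ± 0.32, adjusted p = 0.00796 in edgeR, and 0.0786 when Muscle replicate 1 was left out).

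For the matricellular genes and the proteases, too, the shares of all genes called are those given with the integrins. Of 14 other matricellular genes 13 were tested. Of these, 5 fell (Smoc2, Ccn1, Ccn2, Ccn4 and Ccn5) and 2 rose in transdifferentiated cells against MEF, with a median log2 fold change of -0.77. Against muscle 3 were higher (Smoc1, Ccn3 and Ccn5; 5 with DESeq2, and 6 without either MEF library) and 0 lower in edgeR and with DESeq2 (2 at an unadjusted p under 0.05), with a median of 0.82, and in muscle against MEF 1 was higher and 6 lower, with a median of -0.71. Ccn2, connective tissue growth factor, was at 281 and 425 CPM in transdifferentiated cells, 792 and 548 CPM in muscle, and 1970.1 and 1292 CPM in MEF (-2.21 ± 0.34 against MEF, edgeR adjusted p = 0.00162), and Ccn5 had -2.46 ± 0.31 (edgeR adjusted p = 6.22e-04). Sparcl1, a relative of Sparc, rose to 117 and 105 CPM in transdifferentiated cells and 57.1 and 59.2 CPM in muscle, against 12.2 and 16.3 CPM in MEF, and Spon1 was higher by 2.85 ± 0.49 in transdifferentiated cells (edgeR adjusted p = 0.00298). Ccn3 and Smoc1 were higher in transdifferentiated cells than in muscle, by log2 differences of 5.07 ± 0.31 and 3.34 ± 0.38 (adjusted p = 1.01e-04 and 0.00101 in edgeR). Of 9 proteases known to cleave these proteins 2 fell and 0 rose in edgeR in transdifferentiated cells against MEF (1 rose with DESeq2 and 2 at an unadjusted p under 0.05), with a median log2 fold change of -0.23. The membrane protease Mmp14 was at 235 and 367 CPM in transdifferentiated cells, 265 and 199 CPM in muscle, and 1124 and 672 CPM in MEF (-1.58 ± 0.34 against MEF, edgeR adjusted p = 0.00924). Adamts1 was called lower by a small margin (edgeR adjusted p = 0.0378) and lost the call under 6 of the alternatives (adjusted p up to 0.209). Against muscle 3 were higher in transdifferentiated cells (Mmp2, Mmp3 and Mmp9), with a median of 0.38, with Mmp3, stromelysin, at 42.8 and 36.3 CPM, against 5.88 and 1.52 CPM in muscle and 15.5 and 20.9 CPM in MEF, and Mmp2 losing its call without Muscle replicate 2 (adjusted p = 0.140). In muscle against MEF 6 were lower (3 without Muscle replicate 2), with a median of -1.52, and Adamts4 was the member that was higher (1.53 ± 0.47, edgeR adjusted p = 0.0340), a call lost under 3 of the alternatives (adjusted p up to 0.161).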

How the data were processed

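RNA was sequenced from 2 libraries each of transdifferentiated cells, muscle and MEF. Per the labels' protocols, RNA came from a Qiagen column kit and libraries from the Lexogen SENSE mRNA-seq kit V2, read as single ends on a NextSeq 500. The deposited table holds raw whole-number counts for each gene symbol, as the authors made it. The submitters' processing notes list Trim Galore 0.6.0, HISAT2 2.1.0, featureCounts 1.6.2, DESeq2 1.26.0 and the build mm10, with no order or role. No source used here gives the annotation or the strand setting, so overlapping and antisense genes are uncertain. The authors' deposited table of their own comparison gives log2 fold changes, with SE, p-values and adjusted p-values, per the file headers, and names no contrast. Its column of a mean signal over libraries, as deposited, could not be matched to these libraries and was not used.

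The software was R 4.3.3 and edgeR 4.0.16. The 17400 genes passing filterByExpr were scaled by TMM and fitted in 1 quasi-likelihood model of the 6 libraries with group as its term (3 residual degrees of freedom; biological coefficient of variation 27.3%), with Benjamini-Hochberg adjustment over all tested genes. With 2 libraries a group, the smallest two-sided p of an exact permutation test is 0.333. Genes passing the filter through fewer than 2 groups were left out of counts of calls, medians and background, except in the counts over all genes for the alternatives. Intervals of 95% are from the same model. Ratios by counts are of summed group counts over summed scaled library sizes. The fit was also run on counts simulated from its own dispersions. These had a common mean per gene apart from changes set in transdifferentiated cells, unlike the groups here. The outcome is not given and no result rests on it. RPKM used exon lengths and coordinates of GENCODE M21 (mm10). The genes and lists were chosen with earlier results of these data known. Genes of the lists were named by rule (the 2 largest rises and falls called per list and comparison at a mean of 5 CPM or more), other list genes named were picked after their values were seen, and likeness was ranked among genes at 5 CPM or more; some genes so ranked are not reported here. Alternatives were other scalings, DESeq2 1.42.0, no count filter, the compared groups alone, a replicate block and leaving out each library.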

Additional observations from a re-analysis of the deposited data

How the results depend on the processing

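Of the 252 alternative values for the 7 single genes with a test, 226 kept their direction and their side of the threshold, 16 lost a call, 3 gained one and 7 changed sign. The fit of the 2 compared groups alone gave no value for Tnxb in transdifferentiated cells against muscle or for Tnr in muscle against MEF, which then failed the count filter. All 7 sign changes came from leaving out 1 library of a difference that was not called: the log2 fold change ranged from -0.25 to 0.56 for Comp in transdifferentiated cells against MEF; from -0.05 to 0.60 for Tnc, -0.21 to 0.63 for Thbs2 and -0.55 to 0.23 for Fn1 in transdifferentiated cells against muscle. Tnr in muscle against MEF, given without a test, also changed sign, with a range of -4.35 to 0.70. Leaving out each library in turn, genes called in transdifferentiated cells ran from 1280 to 1926 lower against MEF, and from 589 to 1616 higher and 140 to 605 lower against muscle, and in muscle against MEF from 1980 to 3223 higher and 1778 to 3445 lower. Of those 7 genes, the number called ran from 1 to 5 lower than MEF and 1 to 3 higher than muscle in transdifferentiated cells, and from 4 to 7 lower in muscle than in MEF. The cause was not tested, apart from the fewer libraries. Gene counts in this section are over all genes tested in each fit, also those that passed the filter through fewer than 2 groups. With no count filter, 670 genes were lower in transdifferentiated cells than in muscle, in place of 428 (357 of the 15077 genes). The replicate numbers shared by the groups do not pair the samples by the labels. Deviations of same-numbered libraries correlated at -0.394 (transdifferentiated cells and muscle), -0.674 (transdifferentiated cells and MEF) and 0.417 (muscle and MEF). With the replicate block 2 of the 7 were lower in transdifferentiated cells than in MEF, in place of 4, and 265 genes were lower than in muscle. Depth limits Tnxb, Tnr and Tnn in muscle and MEF, where a library held no more than 47 counts.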
